A study of Mus musculus with 7 samples.

Results

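Cytosolic ribosomal protein genes encode the proteins of the small (40S) and large (60S) subunits of the cytoplasmic ribosome. They were taken from a deposited RNA-seq table of mouse hippocampus as every row whose symbol starts with Rpl or Rps followed by a digit, together with Rplp0, Rplp1, Rplp2 and Rpsa, and without the S6 kinases (Rps6k symbols) and symbols that carry -ps. The rule gave 90 of the 21965 genes in the table, 54 with 60S symbols and 36 with 40S symbols. Of these, 77 are canonical ribosomal proteins, 46 of the 60S and 31 of the 40S. The other 13 are 9 listed paralogs of canonical genes, 3 retrogenes (Rpl27rt, Rpl35rt and Rps23rg1), and Rps19bp1, a binding partner of Rps19 that the rule takes by its symbol.

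Noise-induced hidden hearing loss (NIHHL) is damage to inner ear synapses that leaves hearing thresholds largely intact. The NIHHL mice had been exposed to noise of 110 dB for 2 h. The NIHHL group had 4 libraries and the blank Control group had 3, and hippocampus was taken 1 month after induction. The labels do not state strain, age, sex, litter or batch, and they do not say that the libraries are of different animals; the p-values then reflect only how much these libraries vary, which may be technical.

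Ribosomal proteins are needed in near-equal numbers, and a shortage of many single ones stalls ribosomal RNA processing. Their mRNAs are short, very abundant and start with a run of pyrimidines, the 5′ terminal oligopyrimidine (TOP) tract, through which mTOR signalling and the RNA-binding protein Larp1 set their translation. In neurons, ribosomes in dendrites and near synapses supply the protein synthesis that lasting synaptic change needs.

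The start regions below show what the TOP tract looks like in these genes. RefSeq promoter windows (GRCm38.p6, 250 bases before and 50 bases from the annotated start) were matched by symbol for 57 of the 77 canonical genes, with 67 windows in all. Each line gives 15 bases before and 15 bases from the annotated start, 5′ to 3′ on the gene's strand, for 3 genes of the small subunit, 3 of the large subunit and the stalk gene Rplp2, with the unbroken C and T bases from the annotated start onwards in capitals. In all 7 the base before the annotated start is also C or T, so the capitals mark only the part of the run inside the annotated transcript. Rpl4, a marker gene of the set, is shown as a case without such a run at the annotated start.
Rps6 (chr4:86857353-86857382, minus strand): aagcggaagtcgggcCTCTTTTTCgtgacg
Rps10 (chr17:27635230-27635259, minus strand): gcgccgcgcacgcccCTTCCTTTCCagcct
Rps27 (chr3:90213634-90213663, minus strand): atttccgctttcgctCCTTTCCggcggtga
Rpl15 (chr14:18270972-18271001, minus strand): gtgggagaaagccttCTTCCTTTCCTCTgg
Rpl35 (chr2:39005117-39005146, minus strand): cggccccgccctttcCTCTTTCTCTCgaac
Rpl14 (chr9:120571502-120571531, plus strand): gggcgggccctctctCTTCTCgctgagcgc
Rplp2 (chr7:141447636-141447665, plus strand): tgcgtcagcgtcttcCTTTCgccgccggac
Rpl4 (chr9:64173372-64173401, plus strand): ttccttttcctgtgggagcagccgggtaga

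A C followed by at least 4 further C or T bases stood exactly at the annotated start in 13 of the 67 windows (19.4%), against 822 of all 32841 windows in the table (2.50%). In all 13 the base before the start was C or T too. A run of at least 8 C or T bases beginning with C lay within 15 bases of the start in 25 of 67 windows (37.3%), against 9.26% of all windows. In Rpl4 a pyrimidine stretch lies a few bases before the annotated start. Where transcripts start in this tissue was not measured, so these shares describe the windows and not the mRNAs. Searched on both strands of the 300 bases, CCGGAAG, the core bound by ETS factors such as GABP, was in 25 of 67 windows (37.3%) against 8.86% of all windows. AAGATGGC, the core of the YY1 motif, was in 7 of 67 (10.4%) against 2.75%. The pyrimidine string CTTTCC was in 33 of 67 (49.3%) against 26.6%. These matches are descriptions of the letters only.

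The genes also share their build. The canonical genes lie on 19 chromosomes, with 14 of 77 (18.2%) on chromosome 7, which holds 9.34% of the protein-coding genes in the table. Their median transcript length in the GENCODE annotation was 774 bases, against 2789 bases over all genes tested, and 75 of the 77 were shorter than that. Coding lengths ran from 75 bases in Rpl41 to 1257 bases in Rpl4. Small nucleolar RNAs, which guide modification of ribosomal RNA, lie within 30 of the 77 canonical genes on the same strand (39.0%, 58 annotated small RNA genes), against 277 of 21450 protein-coding genes (1.29%). Rpl4 carried 5 of them, and Rpl13a, long known as host of Snord32a, Snord33, Snord34 and Snord35a, carried 4.

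Total counts were 16982202 to 21585796 in NIHHL libraries and 14871376 to 24515146 in Control libraries, and every canonical gene had at least 451 counts in each library. The hippocampal markers were present, 11 of 11 tested, among them the glutamate transporter gene Slc17a7 at 1045 ± 24.2 CPM in NIHHL and 1157 ± 127 CPM in Control (SD, n = 4 and 3). CPM is the count of a gene per 1000000 counts of its library after TMM scaling. The libraries also differed in how counts fell off with transcript length. The Spearman correlation between a gene's log2 deviation from its mean and its length, across 8383 genes which are not independent replicates, was 0.57 in NIHHL replicate 4, 0.48 in Control replicate 1 and -0.62 in Control replicate 2. It lay between -0.32 and 0.07 in the other 4 libraries.

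The first question was what share of the hippocampal counts the genes take after noise. Counts were not corrected here for transcript length, so this is not their share of mRNA molecules. The 90 genes took 1.91%, 1.96%, 1.99% and 1.38% of all counts in NIHHL replicates 1 to 4, and 1.60%, 2.25% and 1.93% in Control replicates 1 to 3. NIHHL replicate 4 was the lowest of the 7 and Control replicate 2 the highest, and the other NIHHL libraries lay inside the Control range. The 95% Wilson interval, which covers counting error only, was 1.37% to 1.38% in NIHHL replicate 4 and 2.24% to 2.25% in Control replicate 2. The mean share was 1.81% ± 0.290 in NIHHL (SD, n = 4) and 1.93% ± 0.323 in Control (SD, n = 3), a difference of -0.12 percentage points that is smaller than either SD. In bulk tissue, fewer cells rich in ribosomal protein mRNA and less of that mRNA per cell cannot be told apart.

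Both subunits had the same order of libraries. The 60S genes took 1.16%, 1.18%, 1.20% and 0.837% of counts in NIHHL replicates 1 to 4, and 0.973%, 1.37% and 1.17% in Control replicates 1 to 3. The 40S genes took 0.749%, 0.773%, 0.791% and 0.540% in NIHHL replicates 1 to 4, and 0.627%, 0.873% and 0.763% in Control replicates 1 to 3. In each subunit NIHHL replicate 4 was lowest, Control replicate 1 next and Control replicate 2 highest.

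A low-count filter kept 85 of the 90 genes, including all 77 canonical ones, and the next figures count these. Of the 85 genes, 82 were highest in Control replicate 2, a library that was highest for 22.8% of all 14417 genes tested, and 81 were lowest in NIHHL replicate 4, which was lowest for 22.3% of all genes. Control replicate 1 was the second lowest for 77 of the 85. NIHHL replicate 4 lay far below the other NIHHL libraries, by Dixon's criterion, for 15 of the 85 genes; some NIHHL library, high or low, lay apart in this way for 5.79% of all genes. The exceptions at the top were Rps27rt, Rpl7l1 and Rpl35rt, and at the bottom Rps27l, Rpl29, Rps27rt and Rps4l; apart from Rpl29 these are paralogs or retrogenes. These exceptions were named after their values were seen. In log2 CPM, NIHHL replicate 4 was below Control replicate 2 by a median of -0.81 over the 85 genes. The median Pearson correlation between pairs of canonical genes across the 7 libraries was 0.95 and it was 0.85 over the 5 libraries without NIHHL replicate 4 and Control replicate 2; these pairs share their libraries and depth.

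**Figure D1:**
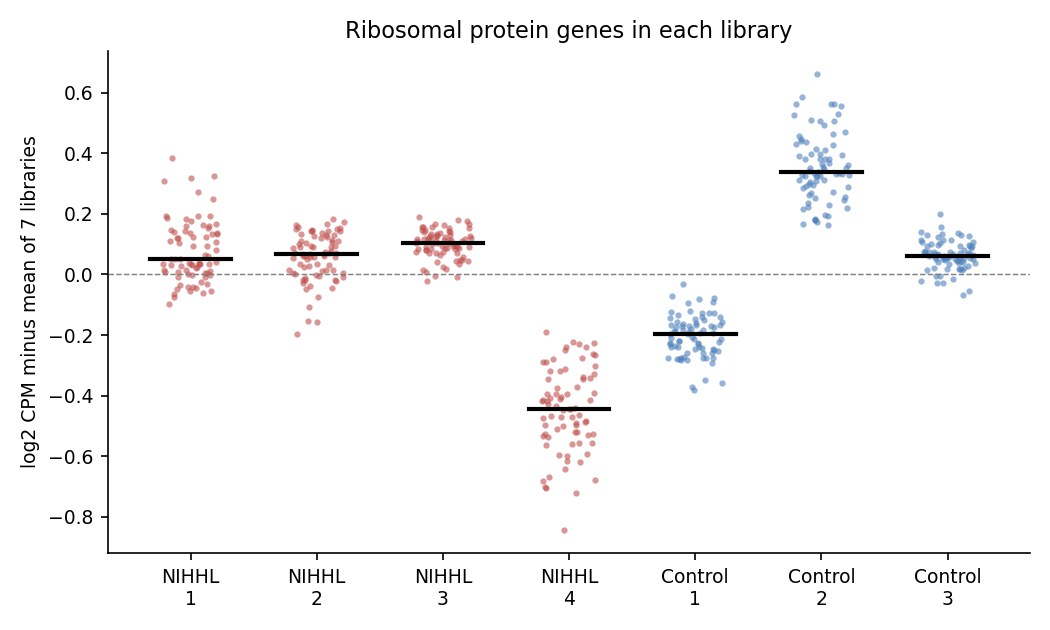
Log2 CPM of each of the 77 canonical ribosomal protein genes minus that gene's mean over 7 libraries (vertical axis), by library, with the median as a black bar; NIHHL is red and Control is blue. The medians are 0.05, 0.07, 0.11 and -0.44 in NIHHL replicates 1 to 4 and -0.20, 0.34 and 0.06 in Control replicates 1 to 3.

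The comparison gene by gene asked which of them differ between NIHHL and Control. The log2 fold change (NIHHL over Control) was below 0 for 81 of the 85 genes tested, against 50.1% of all genes, with a median of -0.11 and an interquartile range of -0.17 to -0.07, where the median over all genes was 0.00 (-0.08 to 0.08). None was called: 0 of 85 passed edgeR's quasi-likelihood test at a Benjamini-Hochberg adjusted p under 0.05, as did 0% of all genes, and the lowest adjusted p was 0.996. At an unadjusted p under 0.05 there were 0 of 85, against 3.63% of all genes. The smallest unadjusted p was 0.0830, for Rps19bp1. DESeq2's Wald test called 0 of the 89 genes it gave a fold change for and 0.022% of all genes, and had 0 of 89 at an unadjusted p under 0.05, against 2.46% of all genes. For 0 of the 85 genes did the groups not overlap, against 5.2% of all genes.

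The count below 0 rested on the libraries at the ends. Without NIHHL replicate 4 the count of genes below 0 was 48 of 85 and the median 0.00. Without Control replicate 2 it was 22 of 84 with a median of 0.04. Without both libraries it was 3 of 85 with a median of 0.14, where 48.5% of all genes were below 0. NIHHL replicate 4 and Control replicate 2 were the lowest and highest libraries for nearly all of these same genes. Leaving them out therefore raises the fold changes by construction, and the shift is not a result about NIHHL. Leaving out Control replicate 1, a low library, gave 83 of 85 and a median of -0.25. That lowers the fold changes by construction too. There Rps19bp1, Rps4l and Rpl24, all lower in NIHHL, had an unadjusted p under 0.05 (edgeR). This is 3 of 85, against 808 of all 14660 genes, and 0 were called. These p-values are no support for a difference. Without both end libraries 7 of 85 genes had an unadjusted p under 0.05 (edgeR), all higher in NIHHL, against 7.18% of all genes. They were Rpl13, Rps9, Rpl28, Rpl29, Rpl27, Rps15 and Rplp0. In that fit 0 of 85 had an adjusted p under 0.05, against 0.00689% of all genes. Both libraries stood at the ends for these same genes, so the p-values and the shared direction are no support for a difference.

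**Figure D2:**
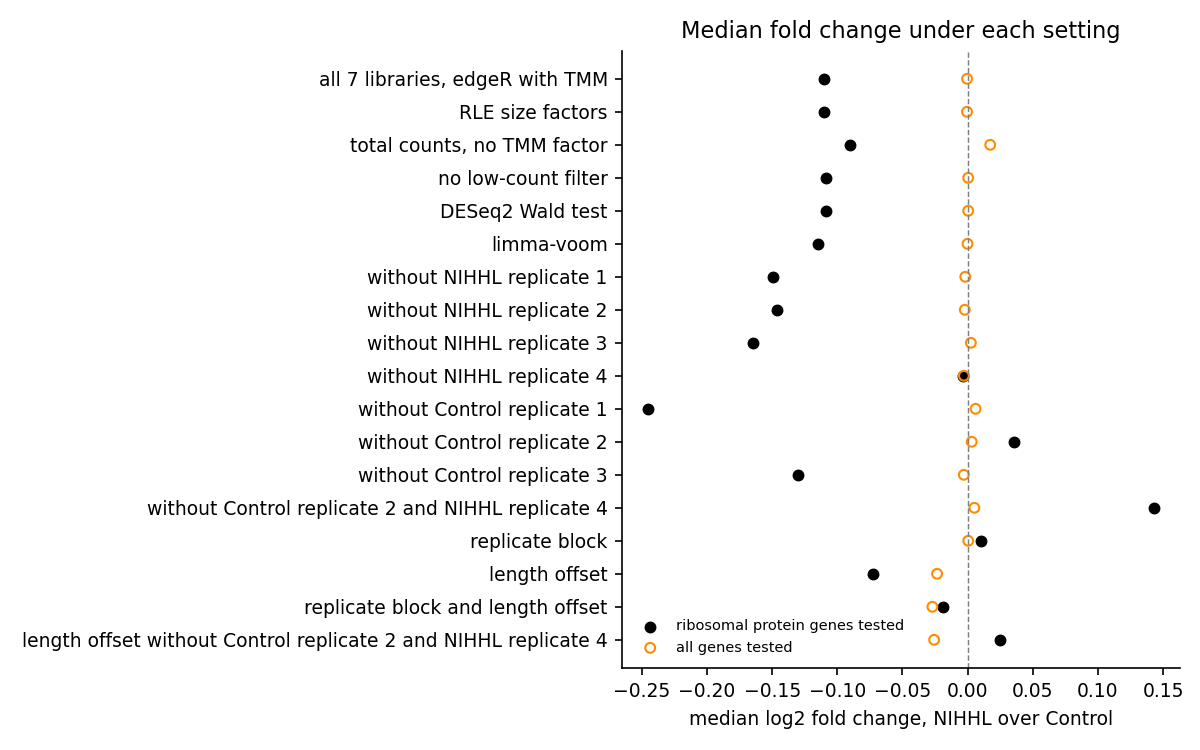
Median log2 fold change, NIHHL over Control, of the ribosomal protein genes tested (black) and of all genes tested (open orange) by setting, with all 7 libraries at the top; unrounded counts are not drawn. The black points lie between -0.25, without Control replicate 1, and 0.14, without Control replicate 2 and NIHHL replicate 4.

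The stalk proteins form the flexible arm of the 60S subunit that recruits elongation factors. Rplp0 (ENSMUSG00000067274), which anchors the arm, stood at 304, 328, 323 and 231 CPM in NIHHL replicates 1 to 4, and 250, 348 and 287 CPM in Control replicates 1 to 3. Rplp1, which binds it as a dimer with Rplp2, stood at 334, 338, 349 and 231 CPM in NIHHL, and 272, 422 and 347 CPM in Control. Rplp2 stood at 65.7, 61.5, 60.6 and 46.3 CPM in NIHHL, and 57.1, 70.9 and 68.0 CPM in Control. In all 3 genes NIHHL replicate 4 was the lowest and Control replicate 2 the highest library, and the groups overlapped. The log2 fold changes were 0.01 (SE 0.14) for Rplp0, -0.15 (SE 0.18) for Rplp1 and -0.16 (SE 0.12) for Rplp2, and none passed the test.

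Among the 60S genes, 47 of 50 tested were below 0 and the median log2 fold change was -0.11. Rpl4, a core protein that lines the exit tunnel, stood at 558, 599, 604 and 470 CPM in NIHHL replicates 1 to 4, and 562, 644 and 601 CPM in Control replicates 1 to 3. Its log2 fold change was -0.11 (SE 0.09, edgeR adjusted p = 0.996), with NIHHL replicates 2 and 3 inside the Control range and replicates 1 and 4 below it. Rpl8, which contacts ribosomal RNA near the peptidyl transferase centre, stood at 248, 262, 258 and 207 CPM in NIHHL, and 213, 272 and 246 CPM in Control. It had a log2 fold change of 0.00 (SE 0.10) and, with Rplp0, was one of the 2 canonical genes above 0.

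Among the 40S genes, 34 of 35 tested were below 0, with a median of -0.10, and the one above it was the paralog Rps27rt. Rps24, whose human gene is mutated in some cases of Diamond-Blackfan anaemia, stood at 380, 417, 412 and 296 CPM in NIHHL replicates 1 to 4, and 349, 481 and 415 CPM in Control replicates 1 to 3. Rps15, needed for export of the pre-40S subunit, stood at 317, 324, 314 and 223 CPM in NIHHL, and 247, 360 and 306 CPM in Control. The log2 fold changes were -0.14 (SE 0.14) for Rps24 and -0.05 (SE 0.16) for Rps15. For Rps4x, the X-linked S4 gene, the value was -0.11 (SE 0.15).

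Levels per transcript length differed between members far more than between groups. The canonical genes ran from 31.0 to 748 CPM per kilobase with a median of 270, and all 77 lay above the median of 8.11 for the 14393 tested genes with a length. The highest was Rps24 at 717 ± 107 CPM per kilobase in NIHHL and 790 ± 126 in Control, followed by Rpl23a, Rplp1, Rpl13a and Rpl41 (SD, n = 4 and 3). The SDs of the first 5 overlapped, but they include library differences that these genes share. Such SDs cannot decide the order of the genes, which was not tested. Rps20 and Rps15a were lowest at 31.0 and 37.3 CPM per kilobase, and their annotated median transcripts of 3706 and 5130 bases are the longest of the set. Rpl22, with 56.3 CPM per kilobase, was next and also had a long annotated transcript of 2048 bases. Those lengths come from the annotation, and which transcript the hippocampus uses was not measured.

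**Figure D3:**
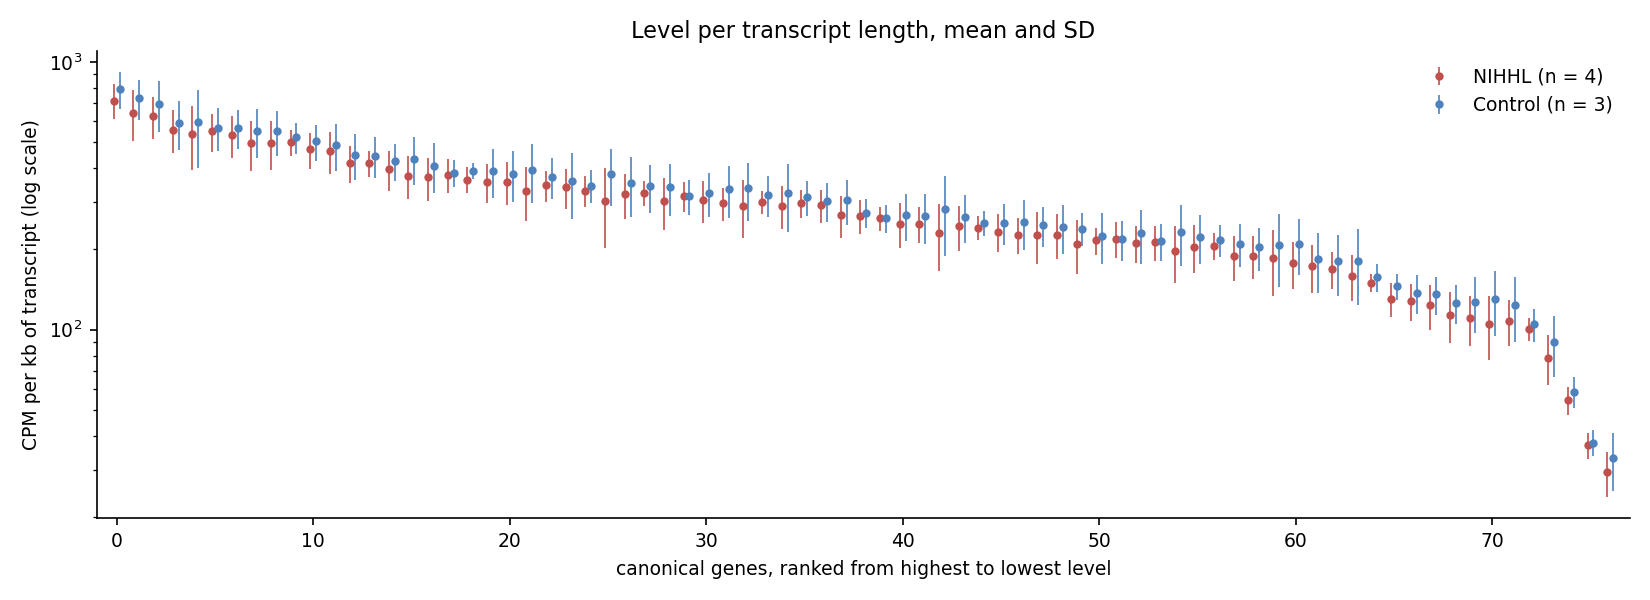
CPM per kilobase of median annotated transcript (log axis) of the 77 canonical genes, ordered from highest to lowest, with mean and SD for NIHHL (red, n = 4) and Control (blue, n = 3). The levels run from 748 for Rps24 to 31.0 for Rps20 over all libraries, and the bars of both groups overlap for each gene.

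The most negative fold changes among canonical genes were those of short reading frames. The log2 fold change was -0.34 (SE 0.30) for Rps29, -0.31 (SE 0.26) for Rps28, -0.29 (SE 0.31) for Rpl38 and -0.26 (SE 0.23) for Rps27, with coding lengths of 168, 207, 210 and 252 bases. The 2 shortest genes were less far below 0 than these: Rpl41 (75 bases) was at -0.15 (SE 0.30) and Rpl39 (153 bases) at -0.19 (SE 0.21). Over the 25 canonical genes with a coding length under 400 bases the median was -0.17, and over the 22 above 600 bases it was -0.08. Across the 77 genes, which are not replicates and share their libraries, the Spearman correlation of fold change with coding length was 0.63. It was 0.46 without NIHHL replicate 4, 0.24 without Control replicate 2 and -0.04 without both, where the short genes had a median of 0.15 and the long genes 0.14. The fold change ran from -0.54 to 0.04 over all 19 settings for Rps29, from -0.47 to 0.08 for Rps28, from -0.49 to 0.16 for Rpl38 and from -0.41 to 0.10 for Rps27. The same split was seen within single libraries. The short genes had a median deviation of -0.52 in NIHHL replicate 4 and 0.46 in Control replicate 2, and the long genes -0.34 and 0.28. NIHHL replicate 1 also set them apart, at 0.14 for the short genes and 0.01 for the long ones, and NIHHL replicate 2 had the reverse order, at 0.00 and 0.11.

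**Figure D4:**
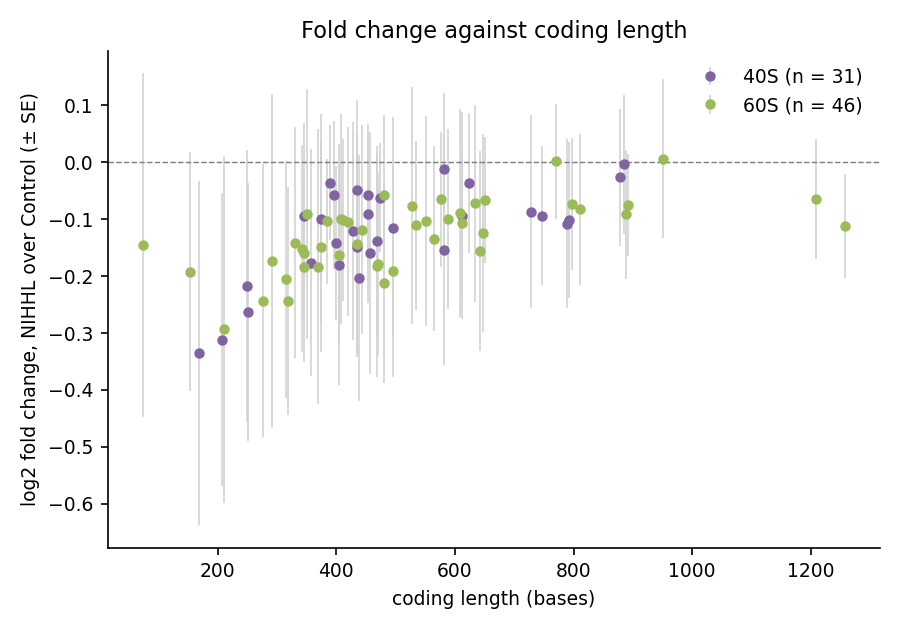
Log2 fold change, NIHHL over Control, with its SE (vertical axis) against coding length in bases (horizontal axis) for the 31 canonical 40S genes (purple) and 46 canonical 60S genes (green). Values run from -0.34 for Rps29 to 0.01 for Rplp0, and every gene shorter than 300 bases lies below -0.14.

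Other short transcripts had the same end libraries, with smaller deviations. Among transcripts under 600 bases, 25 ribosomal protein genes had a median deviation of -0.54 in NIHHL replicate 4 and 0.44 in Control replicate 2, and 176 other genes had -0.33 and 0.35. Among those of 1000 to 2000 bases, 14 ribosomal protein genes had -0.32 and 0.32, and 3308 other genes -0.09 and 0.12. With a trend of each library on transcript length removed before the test, 75 of 85 genes were below 0, against 58.5% of all genes, and the median was -0.07 against -0.02 over all genes. In that fit Rpl22l1, Rpl36al, Rps28, Rpl36a and Rps27 had an unadjusted p under 0.05, all lower in NIHHL, which is 5 of 85 against 5.69% of all genes. With the same trend removed and both end libraries left out, 25 of 85 were below 0, against 58% of all genes, and the median was 0.03 against -0.03 over all genes. There Rplp0 and Rpl41, higher in NIHHL, and Rpl36al, lower in NIHHL, had an unadjusted p under 0.05, which is 3 of 85 against 8.16% of all genes. The libraries left out were again those at the ends for these same genes. This shift and these p-values are therefore no support for a difference.

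**Figure D5:**
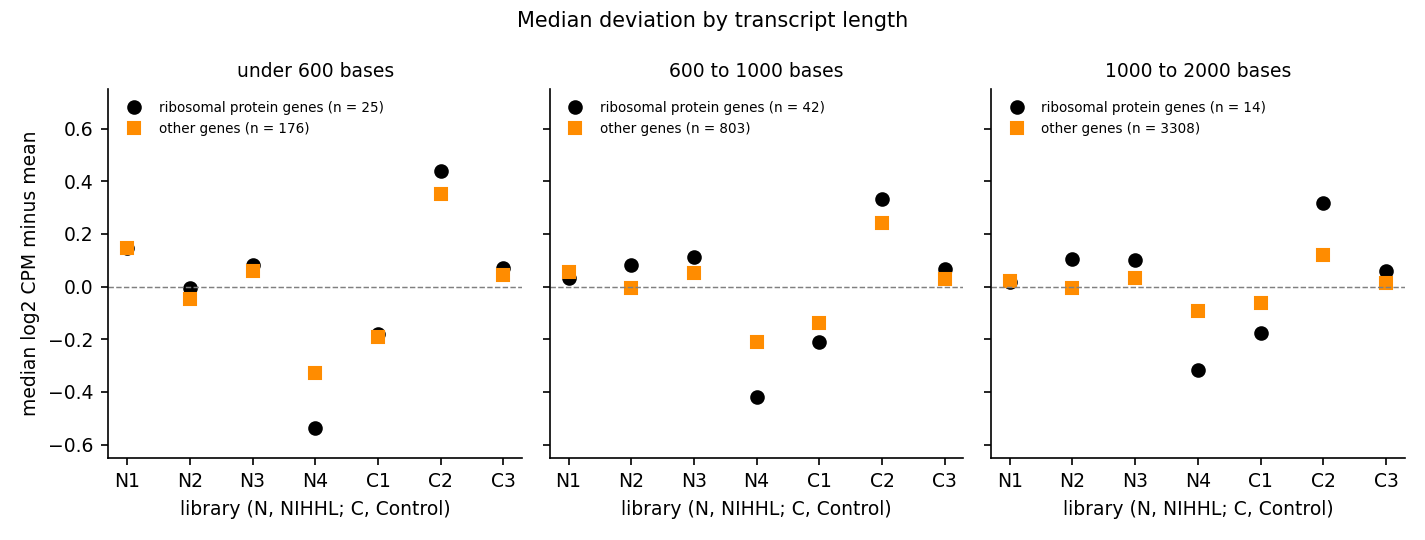
Median log2 CPM minus each gene's mean over 7 libraries, by library (N1 to N4, NIHHL; C1 to C3, Control), for ribosomal protein genes (black circles) and all other tested genes (orange squares) in 3 ranges of transcript length. In N4 the ribosomal protein genes lie at -0.54, -0.42 and -0.32 and the other genes at -0.33, -0.21 and -0.09.

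Several members have a paralog, some of which can take their place in the ribosome. Rpl22l1, the paralog of Rpl22, stood at 58.5, 52.6, 53.1 and 36.3 CPM in NIHHL replicates 1 to 4, and 48.5, 70.7 and 56.5 CPM in Control replicates 1 to 3. Per transcript length it made up 62.8% ± 2.53 of the pair in NIHHL and 64.8% ± 1.74 in Control (SD, n = 4 and 3), a difference below the SD of NIHHL. That share depends on the long annotated transcripts of Rpl22. Rpl36al, a paralog of Rpl36a, stood at 56.4, 53.5, 54.8 and 33.0 CPM in NIHHL, and 54.3, 71.9 and 59.7 CPM in Control. Its log2 fold change was -0.33 (SE 0.18, edgeR adjusted p = 0.996), and its share of the pair was 26.9% ± 1.18 in NIHHL and 28.4% ± 1.83 in Control.

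The other paralogs were minor in this tissue. Rpl7l1, a paralog of Rpl7, made up 6.94% ± 0.349 of its pair in NIHHL and 6.90% ± 0.943 in Control. Rps27l, whose human counterpart is a p53 target, made up 6.10%, 6.27%, 6.12% and 8.34% beside Rps27 in NIHHL replicates 1 to 4, and 5.50%, 5.86% and 5.72% in Control replicates 1 to 3. All 4 NIHHL shares lay above the Control shares. The mean was 6.71% ± 1.09 in NIHHL, or 6.16% ± 0.0934 without replicate 4, and 5.69% ± 0.184 in Control. This pair was singled out after its values were seen and no test was made of it. Of the 9 pairs, 2 had shares without overlap between the groups. The other was Rpl39l beside Rpl39, where Rpl39l had 7 counts over all libraries. The log2 fold change of Rps27l itself was -0.07 (SE 0.17). Rps4l, which the annotation lists as a transcribed processed pseudogene, made up 4.64% ± 1.14 beside Rps4x in NIHHL and 4.70% ± 0.104 in Control. Its share was 6.26% in NIHHL replicate 4, and the NIHHL mean without that library was 4.10% ± 0.422. This difference was not tested either. Rps27rt, an intronless copy of Rps27, had 125.94 expected counts over all 7 libraries, and reads from Rps27 and Rps27rt can be divided between them.

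The tissue-restricted copies were near or at 0. Rpl10l, a testis gene that stands in for Rpl10 in male meiosis, had 0 counts in all 7 libraries, which allows up to 0.126 to 0.202 CPM per library at 3 counts. Rpl3l, the striated muscle paralog of Rpl3, had 17 counts in all. Rpl39l, a germ cell paralog of Rpl39, was counted 2, 1, 1 and 3 times across NIHHL replicates 1 to 4, and 0 times in each Control library, a level at or under 3 counts per library, for which no fold is given. With no low-count filter 1 of 89 members, Rpl39l, had an unadjusted p under 0.05 (edgeR), against 606 of all 18181 genes. After adjustment 0 of the 89 members and 0 of all genes passed. The retrogenes Rpl27rt and Rps23rg1 were also below the filter, and Rpl35rt stood at 0.599 ± 0.471 CPM in NIHHL and 0.424 ± 0.217 CPM in Control.

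Only 3 of the 85 genes were below 0 under all 19 settings, the main one included, and 0 of these are canonical. They were Rpl36al, whose log2 fold change ran from -0.41 to -0.05, Rps4l, from -0.28 to -0.07, and Rps19bp1, from -0.32 to -0.12. Above 0 throughout was 1 gene, the low-count retrogene Rpl35rt, from 0.24 to 1.26 over the 15 settings that held it. With all 7 libraries it was at 0.45 (SE 0.60). The settings share most libraries, and the share of all genes with a constant direction was not counted. Rps19bp1, also known as a partner of the deacetylase Sirt1, stood at 10.3, 9.83, 11.6 and 8.79 CPM in NIHHL replicates 1 to 4, and 10.5, 12.8 and 12.4 CPM in Control replicates 1 to 3. Its log2 fold change was -0.24 (SE 0.13), and 3 of the 4 NIHHL libraries lay below all Control libraries.

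Ribosomal components outside the symbol rule had the same order of end libraries. Rack1, a scaffold on the 40S head, stood at 208, 217, 232 and 165 CPM in NIHHL replicates 1 to 4, and 182, 241 and 219 CPM in Control replicates 1 to 3. Fau encodes a ribosomal protein fused to a ubiquitin-like protein. Its log2 fold change was -0.05 (SE 0.15), and that of Rack1 -0.06 (SE 0.12). Both genes were lowest in NIHHL replicate 4 and highest in Control replicate 2.

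The wider genes of ribosome production and translation had smaller medians, and longer transcripts. Median transcript lengths were 1737 bases for the other translation genes, 2738 for biogenesis and 3281.5 for mTOR signalling and its targets. The ribosomal protein genes had 771 bases, and the part of length in these medians was not tested. Of 15 other translation genes, most of them known TOP mRNAs, 11 were below 0 with a median log2 fold change of -0.06 and 0 were called; the initiation factor subunit Eif3e was at -0.15 (SE 0.11) and the nucleolar chaperone Npm1 at -0.13 (SE 0.10). Of 47 ribosome biogenesis genes, 35 were below 0 with a median of -0.05. Mphosph10, a protein of the small subunit processome, stood at 12.8, 15.6, 13.0 and 14.6 CPM in NIHHL replicates 1 to 4, and 17.9, 18.6 and 16.7 CPM in Control replicates 1 to 3, without overlap. Its log2 fold change was -0.34 (SE 0.10), with an edgeR adjusted p of 0.996. Utp20, another processome protein, was at 0.22 (SE 0.09). Of 15 genes of mTOR signalling and its translational targets, 9 were below 0 with a median of -0.01, with -0.18 (SE 0.10) for the S6 kinase gene Rps6kb1 and 0.12 (SE 0.08) for Eif4ebp2.

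Set beside other families of short, abundant transcripts, the ribosomal protein genes were not alone in this direction. Mitochondrial ribosomal protein genes were below 0 in 71 of 78 cases (median -0.11), complex I subunit genes in 37 of 38 (median -0.15) and proteasome subunit genes in 35 of 38 (median -0.09), and 0 of each were called by edgeR. The genes with the smallest p were Mrpl36 at -0.26 (SE 0.10) and Mrpl33 at -0.32 (SE 0.14), Ndufa3 at -0.30 (SE 0.16) and Ndufa12 at -0.24 (SE 0.13), and Psmd5 at -0.16 (SE 0.08) and Psmd12 at -0.14 (SE 0.07). Complex I genes, with a median transcript length of 810 bases, had a median deviation of -0.36 in NIHHL replicate 4 and 0.38 in Control replicate 2. No difference between these families was tested.

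Markers of other cell types differed between the libraries too. The 14 choroid plexus genes were all above 0 (median log2 fold change 0.71), with a summed level of 1040 to 12151 CPM in NIHHL and 397 to 9300 CPM in Control, and none was at 0. The prolactin receptor gene Prlr was at 0.97 (SE 0.93) and Tmem72 at 0.29 (SE 0.19). By library, the summed choroid plexus level was 12151, 1040, 6471 and 6538 CPM in NIHHL replicates 1 to 4. It was 397, 9300 and 2360 CPM in Control replicates 1 to 3. All 8 ependymal genes tested were above 0 (median 0.47), at 67.7 to 86.3 CPM in NIHHL and 42.9 to 63.8 CPM in Control. Ak7 and Foxj1 were at 0.70 (SE 0.16) and 0.64 (SE 0.19). Of 10 oligodendrocyte genes 9 were above 0 (median 0.19), at 8398 to 9875 CPM in NIHHL and 7293 to 9142 CPM in Control, with Mog at 0.23 (SE 0.08) and Mobp at 0.23 (SE 0.09). All 10 astrocyte genes were above 0 (median 0.07), at 5683 to 6225 CPM in NIHHL and 5074 to 6267 CPM in Control, with Sox9 at 0.30 (SE 0.10) and Gfap at 0.16 (SE 0.09).

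For microglia 6 of 10 genes were above 0 (median 0.04), at 515 to 642 CPM in NIHHL and 547 to 580 CPM in Control, with C1qa at 0.12 (SE 0.08) and Cx3cr1 at 0.13 (SE 0.10). For blood 2 of 5 were above 0 (median -0.05), at 209 to 594 CPM in NIHHL and 182 to 628 CPM in Control, with Alas2 at 0.08 (SE 0.41) and Hbb-bs at -0.11 (SE 0.59). Of the 11 neuronal genes 6 were above 0 (median 0.00), with Slc17a7 at -0.15 (SE 0.08) and Prox1, a dentate granule cell factor, at 0.25 (SE 0.17). In these lists 0 genes were called by edgeR. Their part in the ribosomal protein values was not tested.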

How the data were processed

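Per the labels' protocols, mRNA enriched with oligo(dT) was fragmented, made into libraries with an NEBNext kit and run on an Illumina instrument. The authors deposited 1 table of estimated counts per gene, not normalized, in which 90.7% of values are whole. Of tools, HISAT2, DESeq2, StringTie 1.3.1 and Bowtie2 2.2.8 appear in the submitters' processing notes, with no role stated. Genome build, counting method and strandedness are not given by the labels used here. Of the 90 genes 20 carried decimals, and 300 pseudogenes with Rpl or Rps -ps symbols are in the GENCODE annotation but 4 in the table, so reads of near-identical copies can be divided or lost and levels are uncertain to that extent.

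Counts were rounded to whole numbers, filtered with edgeR's filterByExpr (minimum count 10), which left 14417 genes, and scaled by TMM. The groups were set against each other with the robust quasi-likelihood test of edgeR, Benjamini-Hochberg adjusted over all genes, and calls needed an adjusted p under 0.05. Each SE is the size of the log2 fold change over the root of its F statistic. Log2 CPM carries a prior count of 2. The length trend was a loess fit (span 0.5) per library. Lengths are medians of GENCODE M21 (GRCm38) basic transcripts, matched by identifier for 21854 genes. The test was checked on simulated data. Alternatives were another scaling, filter or tool, unrounded counts, leaving out libraries, the replicate number as a block, the length trend and the canonical genes alone. Software was R 4.3.3, edgeR 4.0.16, limma 3.58.1 and DESeq2 1.42.0.

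The members and gene lists were chosen with earlier results of these data known. Named genes are the markers Rplp2 and Rpl4, the stalk genes, the 6 per direction with the smallest p, the 5 highest and 5 lowest per length, paralogs with their parents, Rps19bp1, genes without overlap, at most 6 genes with a library far from its group, and 2 per other list; any others were named after their values were seen. Single-gene results of some genes are not reported here.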

Additional observations from a re-analysis of the deposited data

Results flagged for a closer look

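NIHHL replicate 4 lay apart from the other 3 NIHHL libraries by Dixon's criterion (its gap to the nearest library against the group's range) for 15 of the 85 genes. Some NIHHL library did so for 5.79% of all genes, and chance flags about 1 gene in 20. The 85 genes share the same libraries and move together, so their flags are not independent and the count cannot be set against that rate. The share of counts in all 90 genes was 1.38% in that library, with 0.540% for the 40S genes and 0.837% for the 60S genes, and each was apart in this way. The 40S and 60S shares are parts of the share of all 90 genes. In CPM, NIHHL replicate 4 stood at 231 for Rplp1, 33.0 for Rpl36al, 245 for Rpl23a, 111 for Rpl10, 74.7 for Rpl34, 124 for Rpl32, 238 for Rpl19, 169 for Rpl31 and 223 for Rps15. For these 9 genes it was the lowest NIHHL library. The Control group, with 3 libraries, was not examined in this way.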

How the results depend on the processing

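Under each of the 19 settings 0 ribosomal protein genes were called. The count called over all genes, 0 with all 7 libraries, was 4 with DESeq2, 1 without Control replicate 2 and NIHHL replicate 4, and 1 with the length trend removed as well, a setting chosen after seeing the data. The direction of single named genes was not stable: it turned in 100 of 572 values under alternative settings, none of them past the threshold. When each library, or both end libraries, was left out, the median log2 fold change of 40S genes ran from -0.24 to 0.16, and the difference in share of counts from -0.28 to 0.19 percentage points. Single genes ran from -0.25 to 0.0014 for Rplp2, -0.16 to 0.016 for Rpl4, -0.099 to 0.25 for Rplp0, -0.30 to 0.14 for Rplp1, -0.43 to 0.46 for Rps27rt, -0.087 to 0.16 for Rpl8, -0.34 to 0.059 for Rpl22l1, -0.25 to 0.080 for Rps24, -0.29 to 0.10 for Rpl23a, -0.24 to 0.19 for Rpl13a, -0.34 to 0.30 for Rpl41, -0.13 to 0.12 for Rpl3, -0.11 to 0.022 for Rpl7l1, -0.21 to 0.16 for Rpl7, -0.26 to 0.14 for Rpl10, -0.17 to 0.094 for Rpl22, -0.38 to 0.087 for Rpl36a, -0.36 to 0.12 for Rpl39, -0.22 to 0.12 for Rps4x, -0.23 to 0.23 for Rps27l, -0.41 to 0.098 for Rps27, -0.27 to 0.23 for Rpl34, -0.30 to 0.12 for Rpl32, -0.23 to 0.16 for Rpl19, -0.28 to 0.15 for Rpl31, -0.18 to 0.20 for Rps15, -0.16 to 0.13 for Rack1 and -0.17 to 0.22 for Fau. With the length trend removed, Rps27l was at 0.029, Rps15 at 0.023 and Fau at 0.033. With that trend removed and both end libraries left out, the genes that turned above 0 were at 0.073 for Rpl13a, 0.16 for Rpl41, 0.037 for Rpl3, 0.066 for Rpl7, 0.017 for Rpl10, 0.038 for Rpl22, 0.019 for Rps4x, 0.10 for Rps27l, 0.11 for Rpl34, 0.043 for Rpl19, 0.022 for Rpl31, 0.067 for Rps15, 0.055 for Rack1 and 0.081 for Fau. The cause was not tested.

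With the replicate number as a block, which drops NIHHL replicate 4, 34 of 85 genes were below 0, the median was 0.01 and 0 were called; Rpl13a was at 0.058, Rpl41 at 0.066, Rpl3 at 0.0094, Rpl7l1 at 0.0015, Rpl7 at 0.011, Rps4x at 0.012, Rps27l at 0.028, Rpl34 at 0.083, Rpl19 at 0.030, Rpl31 at 0.0023, Rps15 at 0.082, Rack1 at 0.044 and Fau at 0.068. With block and length trend together, Rpl13a was at 0.028, Rpl41 at 0.040, Rps27l at 0.0062, Rpl34 at 0.057, Rpl19 at 0.0012, Rps15 at 0.056, Rack1 at 0.015 and Fau at 0.044. Deviations of same-numbered libraries from their group mean had correlations of -0.45, -0.44 and 0.06. These values also carry library effects such as the length trend, so they cannot decide whether equal numbers mark paired samples.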
